A study of Mus musculus with 8 samples.

Results

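The 10 adipocyte identity genes are Pparg, Cebpa, Plin1, Cidec, Fabp4, Cd36, Lpl, Adipoq, Cfd and Lep, and they were followed through the newborn skull roof of mice with and without Girk3. They were found by matching their symbols to the Ensembl gene IDs of the deposited count table, where all 10 were among 49315 gene IDs. The data are bulk RNA sequencing of calvaria, the flat bones of the skull, from female C57BL6 mice aged 2 to 3 days. There were 4 wild-type libraries (WT1 to WT4) and 4 libraries of Girk3 knockout mice (KO1 to KO4), with no agent given to either genotype in the labels. Girk3 is the potassium channel subunit encoded by Kcnj9, and how the allele was made or which cells lack it is not given in the sources used here.

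Adipocytes store triglyceride in a single large droplet and release hormones into the blood. Their differentiation is driven by the nuclear receptor PPAR gamma together with C/EBP alpha, which switch on the genes of the lipid droplet, of fatty acid uptake and of the secreted products. In bone, adipocytes and osteoblasts arise from related mesenchymal precursors. Several of the genes are not restricted to fat: Fabp4 and Cd36 are also made by capillary endothelium and macrophages, Lpl by muscle and macrophages, and Cebpa by myeloid cells.

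The genes behaved as 2 sets. Plin1, Cidec, Adipoq, Cfd and Lep were low in most libraries of both genotypes and high in WT1. Pparg, Cebpa, Fabp4, Cd36 and Lpl were present in every library within a range of 1.45-fold to 2.66-fold. None of the 9 genes that could be tested passed an adjusted p of 0.05 between the genotypes in edgeR's quasi-likelihood test, where 1.32% of all 17743 tested genes did.

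The bases before the starts of 4 genes are shown because they stand on the 2 sides of that division: Cebpa, present in all libraries within 1.45-fold, and the secreted products Adipoq, Cfd and Lep, which were high in WT1. Each line holds 250 bases up to the RefSeq start (build GRCm38.p6, plus strand of the genome, 5′ to 3′), and capitals mark matches to the motifs named after them.
Cebpa, chr7:35119043-35119292: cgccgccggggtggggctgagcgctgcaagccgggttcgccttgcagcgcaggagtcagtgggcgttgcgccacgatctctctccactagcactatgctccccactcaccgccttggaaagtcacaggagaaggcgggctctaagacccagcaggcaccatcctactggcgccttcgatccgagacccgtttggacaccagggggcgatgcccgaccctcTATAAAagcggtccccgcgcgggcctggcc
Adipoq, chr16:23146286-23146535: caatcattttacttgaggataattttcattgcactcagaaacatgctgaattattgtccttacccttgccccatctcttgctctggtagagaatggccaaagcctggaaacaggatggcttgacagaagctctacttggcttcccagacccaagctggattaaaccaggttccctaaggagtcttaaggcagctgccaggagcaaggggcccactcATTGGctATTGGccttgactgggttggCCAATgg
Cfd, chr10:79890603-79890852: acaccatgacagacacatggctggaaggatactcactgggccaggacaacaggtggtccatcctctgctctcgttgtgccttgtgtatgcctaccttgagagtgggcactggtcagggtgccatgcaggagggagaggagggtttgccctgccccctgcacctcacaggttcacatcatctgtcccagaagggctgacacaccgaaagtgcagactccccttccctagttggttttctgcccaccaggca
Lep, chr6:29059971-29060220: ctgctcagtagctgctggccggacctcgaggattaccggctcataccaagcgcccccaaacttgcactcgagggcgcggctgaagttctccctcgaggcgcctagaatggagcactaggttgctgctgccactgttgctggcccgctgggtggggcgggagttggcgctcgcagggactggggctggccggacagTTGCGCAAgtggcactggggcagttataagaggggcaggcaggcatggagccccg

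The motifs searched on both strands were the C/EBP palindrome TTGCGCAA, the TATA box with the letters TATAAA, the box with the letters CCAAT and a direct repeat of AGGTCA with a single base between the copies, the kind of site that PPAR gamma binds with its partner RXR. The window of Lep held TTGCGCAA from 55 to 48 bases before the start, a match found in 0.164% of the 32851 RefSeq windows of this length. Cebpa held TATAAA from 30 to 25 bases before its start (12.4% of windows hold one), and Adipoq held 3 CCAAT boxes within 34 bases of its start (33.9% of windows hold at least 1). The Cfd window held none of the 4 motifs. RefSeq windows were matched for 8 of the 10 genes, all but Fabp4 and Lpl. No window of the 8 held the direct repeat, which 0.033% of all windows hold, and the matches overlap no other motif in the 4 windows printed.

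Levels are given as CPM, counts of a gene per 1 M counts of its library. The libraries held 35.4 M to 54.3 M counts each, so that 3 counts, taken as the floor of detection, were at most 0.0848 CPM. KO4, the shallowest library, had a count in 28520 genes, against 24545 to 25729 in the others. Kcnj9 itself held 0 to 4 counts in wild type and 2 to 9 in knockout, too few to check the labels. Markers of osteoblasts, the bone-forming cells of the labelled tissue, summed to between 148217 and 194653 CPM. Skeletal muscle markers ran from 13.4 CPM in WT3, 49.5 in KO2 and 164 in KO3 to between 779 and 2986 CPM in the others. The labels do not say how mice were drawn from litters, so p-values measure only the spread between these samples.

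Pparg (ENSMUSG00000000440, chr6:115360951-115490399, plus strand, GRCm38), the nuclear receptor that is required for adipocyte formation, was low, with 1.96-fold between its highest and lowest library. Its levels were 5.87, 6.30, 4.99 and 5.38 CPM in WT1 to WT4 and 4.13, 4.10, 4.27 and 3.21 CPM in KO1 to KO4. All 4 knockout libraries lay below all 4 wild-type libraries, and KO4 was the lowest of its group. Its log2 fold change (knockout over wild type) was -0.52 ± 0.138 (SE), and the edgeR adjusted p of 0.0921 did not pass. It did pass in DESeq2, at adjusted p = 0.0142, and in limma-voom it was 0.096. Groups that do not overlap, with knockout lower, occurred in 5.96% of all tested genes, and 1 of the 9 tested identity genes was among them. The counts cover the whole gene, so the PPAR gamma isoforms cannot be told apart.

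Cebpa (ENSMUSG00000034957, chr7:35119293-35121928, plus strand), the partner of PPAR gamma that also acts in myeloid cells, was the steadiest of the 10. It stood at 14.7, 13.9, 12.7 and 14.6 CPM in WT1 to WT4 and at 10.8, 10.7, 10.1 and 12.8 CPM in KO1 to KO4. The groups overlapped only through WT3 and KO4. Knockout over wild type, the log2 fold change was -0.33 ± 0.0959 (SE, edgeR adjusted p = 0.116). The gene passed the threshold in DESeq2 (adjusted p = 0.0384), in edgeR without KO4 (0.0337) and in edgeR with keratinocyte markers as a covariate (0.0238). A stretch of 1.94% of its exon bases overlaps a gene model on the opposite strand, and without a stated strand setting reads there cannot be assigned to either.

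Macrophage markers averaged lower in the knockout group, as did both of these genes. The summed level of 15 macrophage markers lay between 704 and 893 CPM in wild-type libraries and between 575 and 648 CPM in knockout ones, without overlap. Within the groups the orders of libraries differed. WT3, with the highest macrophage sum, had the lowest wild-type levels of Pparg and Cebpa. KO4, with the highest knockout sum, had the lowest level of Pparg and the highest knockout level of Cebpa. Of the 15 markers, 14 had a log2 fold change below 0, against 50.1% of all tested genes. An unadjusted edgeR p under 0.05 was found for 13, against 17.4% of all tested genes. DESeq2 called 10 of them lower, against 6.08% of all genes with an adjusted p called, and limma-voom called 2, against 0.941%. In edgeR 5 were called without WT1 and 2 with all libraries, where 1.32% of all tested genes passed. Those 2 were the lysozyme gene Lyz2, which fell by 0.89, and the chemokine receptor gene Cx3cr1, which fell by 0.72 on the log2 scale. The same shares over all genes apply to the list counts that follow. The part of macrophage RNA in the Pparg and Cebpa differences was not tested. In bulk tissue, fewer cells of a type and less RNA per cell cannot be told apart.

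**Figure D1:**
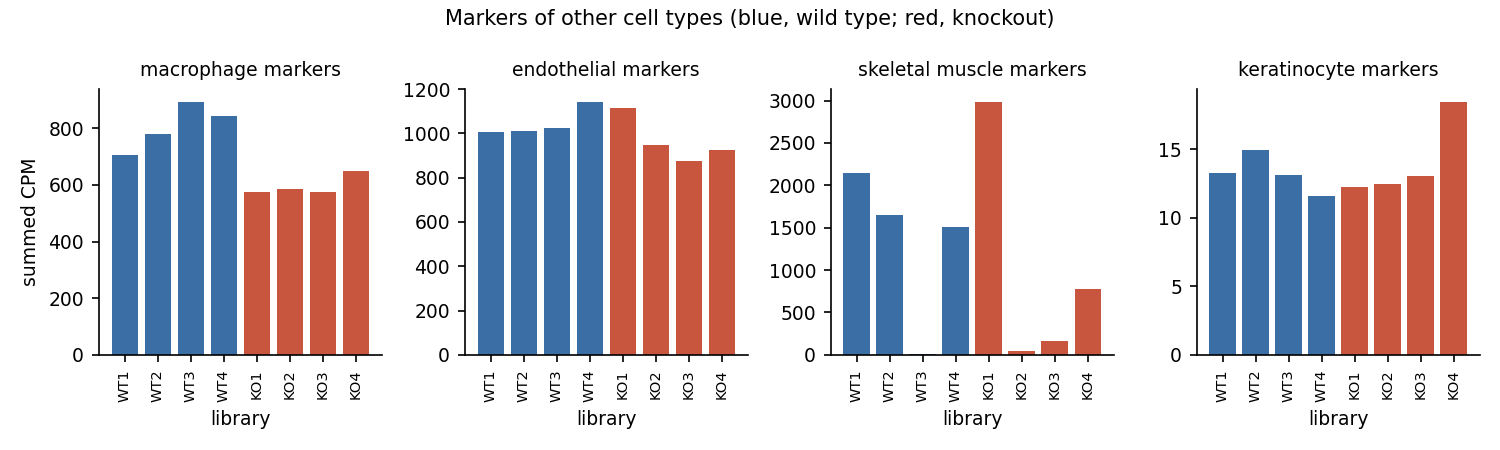
Summed CPM of the marker genes of macrophages, endothelium, skeletal muscle and keratinocytes (15 genes each) in each library, wild type in blue and knockout in red. Macrophage markers were lower in all 4 knockout libraries, while endothelial and keratinocyte markers overlapped between the genotypes and muscle markers were near 0 in WT3 and KO2.

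Fabp4 (ENSMUSG00000062515, chr3:10204088-10208576, minus strand), the fatty acid carrier protein of adipocytes, macrophages and capillaries, was at 136, 105, 75.0 and 83.3 CPM in WT1 to WT4. In KO1 to KO4 it was at 88.5, 56.0, 71.2 and 66.0 CPM. WT1 and WT2 were above every knockout library, and WT3 and WT4 lay within the range of the knockout group. The log2 fold change was -0.50 ± 0.207 (SE, edgeR adjusted p = 0.265), and -0.32 without WT1.

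Lpl (ENSMUSG00000015568, chr8:68880491-68907448, plus strand), the enzyme that frees fatty acids from lipoproteins at the capillary wall, had levels of 118, 89.03, 62.7 and 78.9 CPM in WT1 to WT4. Those in KO1 to KO4 were 80.8, 55.0, 62.1 and 44.6 CPM. The groups overlapped, with WT1 the highest and KO4 the lowest, and the log2 fold change was -0.53 ± 0.236 (SE, edgeR adjusted p = 0.306). Without WT1 it was -0.34.

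Cd36 (ENSMUSG00000002944, chr5:17781690-17888801, minus strand), a receptor that takes up long-chain fatty acids, held 86.4, 77.8, 69.4 and 78.8 CPM in WT1 to WT4. In KO1 to KO4 it held 85.3, 50.9, 60.4 and 60.8 CPM. KO1 was among the highest libraries and the other 3 knockout libraries were below all of wild type. This gave a log2 fold change of -0.28 ± 0.139 (SE, edgeR adjusted p = 0.326). It was -0.45 without KO1 (adjusted p = 0.0527) and -0.17 without KO2 (0.6).

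Endothelial markers summed to between 1004 and 1143 CPM in wild-type libraries and between 875 and 1115 CPM in knockout ones. As with Cd36, KO1 stood with wild type and the other 3 knockout libraries (at 947, 875 and 925 CPM) were below it. None of the 15 endothelial markers passed in edgeR (unadjusted p under 0.05 for 1, DESeq2 calls for 0, limma-voom calls for 0). Of the 15, 13 had a log2 fold change below 0 (median -0.10), against 50.1% of all tested genes. Their part in the levels of Fabp4, Lpl and Cd36 was not tested.

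Fabp4, Lpl and Cd36 had nearly the same order of libraries. Over the 8 libraries their log2 CPM correlated with Pearson's r of 0.83 to 0.93 in pairs (Spearman's rho 0.86 to 0.98). With Adipoq, Cfd, Cidec or Plin1 the same 3 genes gave r of 0.30 to 0.75, and with Pparg 0.61 (Cd36), 0.74 (Fabp4) and 0.83 (Lpl). These correlations describe 8 libraries that share genotype groups and tissue makeup.

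Plin1 (ENSMUSG00000030546, chr7:79720218-79732903, minus strand) encodes perilipin 1, which coats the lipid droplet of fat cells and guards it against lipases. It held 388, 23, 35 and 6 counts in WT1 to WT4, or 8.73, 0.553, 0.782 and 0.124 CPM. KO1 to KO4 held 45, 7, 104 and 37 counts, or 0.974, 0.124, 2.35 and 1.01 CPM. WT1 held 85.8% of the wild-type counts and was 11.2-fold above the next wild-type library, and KO3 was the highest knockout library. The log2 fold change was -1.20 ± 1.39 (SE, edgeR adjusted p = 0.711) with all libraries and 1.19 ± 0.939 (adjusted p = 0.607) without WT1, so that its direction turned.

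Cidec (ENSMUSG00000030278, chr6:113424634-113435760, minus strand), whose product lets lipid pass between droplets so that a large one forms, was rarer. Its counts were 158, 6, 12 and 0 in WT1 to WT4 (3.55, 0.144, 0.268 and 0 CPM) and 9, 0, 19 and 12 in KO1 to KO4 (0.195, 0, 0.429 and 0.326 CPM). WT1 held 89.8% of the wild-type counts, while WT4 and KO2 had no read. The log2 fold change of -2.10 ± 1.60 (SE, edgeR adjusted p = 0.549) became 0.75 ± 1.08 (adjusted p = 0.798) without WT1.

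Adipoq (ENSMUSG00000022878, chr16:23146536-23158028, plus strand) encodes adiponectin, a hormone made almost only by fat cells and, in marrow, by adipogenic stroma. It was counted 463, 10, 46 and 4 times in WT1 to WT4, or at 10.4, 0.240, 1.03 and 0.0828 CPM. In KO1 to KO4 it was counted 46, 11, 125 and 10 times, or at 0.996, 0.195, 2.82 and 0.272 CPM. Wild type therefore held both the highest and the lowest library of the 8, which differed 126-fold. The log2 fold change was -1.46 ± 1.58 (SE, edgeR adjusted p = 0.691) with all libraries and 1.25 ± 1.22 (adjusted p = 0.69) without WT1.

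Cfd (ENSMUSG00000061780, chr10:79890853-79892655, plus strand) encodes adipsin, the complement factor D that fat cells secrete. WT1 to WT4 held 281, 16, 41 and 3 counts (6.32, 0.385, 0.917 and 0.0621 CPM), and KO1 to KO4 held 12, 4, 18 and 4 (0.260, 0.0710, 0.407 and 0.109 CPM). WT1 was 6.9-fold above WT3, the next library of the 8, and WT4 was at the floor. Cfd had a log2 fold change of -3.18 ± 1.40 (SE, edgeR adjusted p = 0.31), the largest of the tested identity genes, and without WT1 it was -1.10 ± 0.78 (adjusted p = 0.546).

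Lep (ENSMUSG00000059201, chr6:29060220-29073877, plus strand) encodes leptin, the hormone by which fat reports its mass to the brain. Its counts were 66, 1, 2 and 0 in WT1 to WT4 and 3, 0, 16 and 5 in KO1 to KO4. Only WT1, KO3 and KO4 were above the floor of 3 counts, at 1.46, 0.37 and 0.141 CPM. The gene did not reach the count filter of the fit and was compared by an exact two-sided permutation test of CPM, whose smallest possible p is 0.0286. Wild type averaged 0.381 ± 0.717 CPM and knockout 0.144 ± 0.162 CPM (± SD of 4 libraries), with an exact permutation p of 0.914. Without WT1, knockout was 0.121 CPM above wild type (exact permutation p = 0.286).

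**Figure D2:**
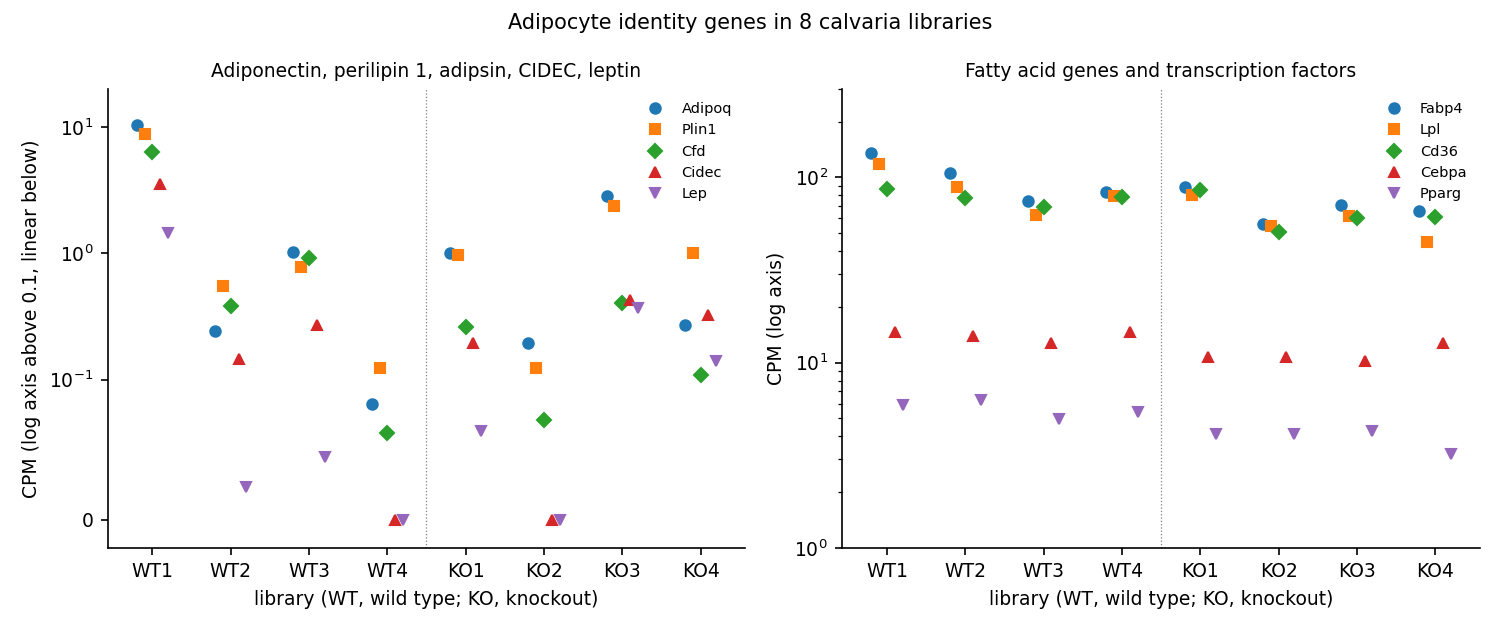
CPM of the 10 adipocyte identity genes in each library (WT1 to WT4, wild type; KO1 to KO4, knockout), with 1 symbol per gene; the left axis is logarithmic above 0.1 CPM and linear below, the right axis is logarithmic. Adipoq, Plin1, Cfd, Cidec and Lep peaked in WT1, at 1.46 to 10.4 CPM. Fabp4, Lpl, Cd36, Cebpa and Pparg were present in all 8 libraries, within a range of 1.45-fold (Cebpa) to 2.66-fold (Lpl).

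The 5 fat-restricted genes had a similar order of libraries. WT1 was the highest of the 8 for all 5, KO3 was the second for Adipoq, Plin1, Cidec and Lep and the third for Cfd, and WT4 and KO2 were the 2 lowest for all 5. Among the 4 that were tested, log2 CPM correlated with r of 0.85 to 0.99 in pairs over the 8 libraries (Spearman's rho 0.69 to 0.97, lowest for Cfd with Plin1). Some markers of other tissues were also high in WT1. Its skeletal muscle sum of 2143 CPM was the highest of wild type and came after KO1 (2986 CPM) among the 8. WT1 was the highest wild-type library for all 15 muscle markers, against 26.1% of all tested genes. The 15 markers are not independent of each other. Elsewhere the muscle order differed: WT4, among the lowest for the fat genes, had 1506 CPM, and KO3, the second highest for 4 of them, had 164 CPM. Platelet and erythroid markers summed to 740 CPM in WT1, the highest of the 8, and to 276 CPM in KO3, where the range of the other libraries was 241 to 667 CPM. The part of these tissues in the WT1 peak was not tested. WT1 was within the range of the others in skin markers, with 13.3 CPM summed over 15 keratinocyte genes against 11.6 to 18.5 CPM in the other libraries.

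WT1 was also the highest library for 4 of the 5 other genes, all but Pparg, for which it came after WT2. That makes 9 of the 10 identity genes, where 11.8% of all tested genes had their highest value in WT1. In 4 of the 9 tested identity genes WT1 was over 2-fold above each other wild-type library, against 1.28% of all tested genes.

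Over the length of the principal GENCODE transcript, Fabp4 stood at 111 ± 30.3 CPM per kb in wild type (SD, n = 4). Cd36 and Lpl followed at 23.0 ± 2.05 and 21.2 ± 5.7 CPM per kb, 2 neighbours that did not differ beyond their spread. Cebpa (5.32 ± 0.352) and Pparg (3.19 ± 0.324) were next. Adipoq at 2.28 ± 3.87 and Cfd at 2.08 ± 3.2 CPM per kb had SDs larger than their means, as did Plin1, Cidec and Lep below them at 0.904, 0.577 and 0.117. Within WT1 alone Adipoq reached 8.06 CPM per kb and was above Pparg, at 3.32. The lead of Fabp4 rests on the length used, 896 bases in its principal transcript against 4489 in all its annotated exons. Over all exon bases, averaged over the 8 libraries, Fabp4 was at 19.0 and Cd36 at 19.8 CPM per kb.

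A further 29 genes of the mature fat cell were followed to see whether they shared this pattern. None of the 24 tested passed in edgeR (unadjusted p under 0.05 for 5, DESeq2 calls for 2, limma-voom calls for 0), with a median log2 fold change of -0.25 against 0.00 over all tested genes, and 0.03 without WT1. WT1 was the highest library for 14 of the 24, against 11.8% of all tested genes. It was over 2-fold above each other wild-type library for 4, against 1.28% of all tested genes. Among these were the galectin gene Lgals12 at 1.46 against at most 0.291 CPM and the glycerol-3-phosphate dehydrogenase gene Gpd1 at 7.83 against 2.63. The others were the droplet protein gene Plin4 at 6.91 against 2.91 and the activin receptor gene Acvr1c at 0.877 against 0.393.

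Of the 5 mature fat cell genes below the filter, 3 showed the same peak. Adig (adipogenin) held 41 counts in WT1, at 0.922 CPM against at most 0.0481 in the other wild-type libraries. Retn, which encodes resistin, held 28 counts in WT1, at 0.63 against 0.112 CPM, and the gluconeogenic enzyme gene Pck1 was at 4.57 against 0.626 CPM. These genes, and the 4 before them, were named after their values were seen. Fasn and Mgll, lipid genes that many cells use, did not peak in WT1: Fasn was at 92.6 CPM there against up to 116 in the other wild-type libraries, and Mgll at 91.3 against 99.3. Nor did every other gene of the list peak there. Below the filter, Adrb3 was at 0.36 CPM in WT1 against up to 0.38 in the other wild-type libraries. Cidea was at 0.27 against 0.414 CPM. Among tested genes, Slc2a4 was at 7.36 against 7.62 CPM and Thrsp at 2.09 against 2.26. These genes were likewise named after their values were seen.

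**Figure D3:**
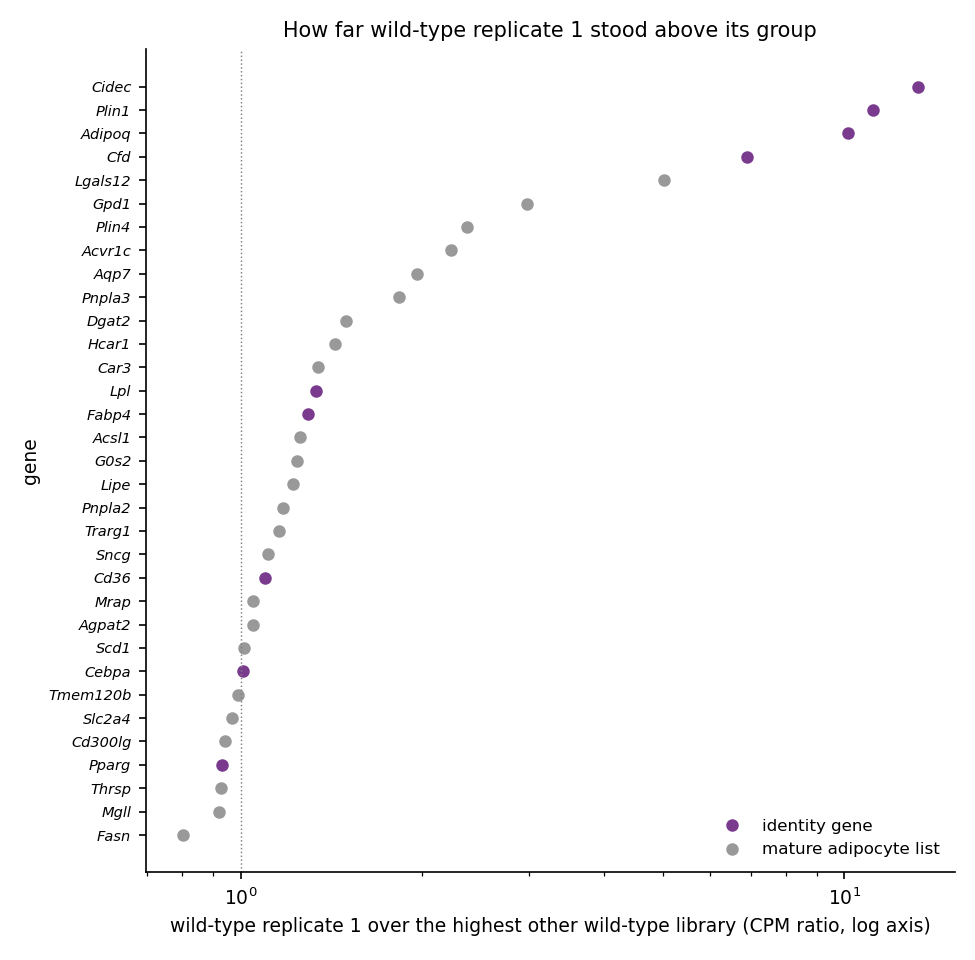
CPM of WT1 divided by the highest of the other 3 wild-type libraries (log axis) for the 9 tested identity genes (purple) and the 24 tested genes of the mature adipocyte list (grey). Cidec, Plin1, Adipoq and Cfd lie farthest right, at 6.9-fold to 13.2-fold, whereas Pparg and Cebpa lie near 1.

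Ucp1, the uncoupling protein that defines brown adipocytes, held at most 2 counts in any library, and Elovl3 at most 4. Other genes of the brown and beige list were higher, here named after their values were seen. Cidea reached 31 counts (0.671 CPM) in KO1, the library with the most muscle RNA. Cox8b was at 4.45 CPM in WT1 and at 0.294 in KO3, which held little muscle RNA. Prdm16 and Dio2 averaged 7.69 and 26.8 CPM over the 8 libraries and were highest in WT3, which held the least. The part of muscle RNA in these levels was not tested. None of the 14 tested genes of the brown and beige list passed in edgeR (unadjusted p under 0.05 for 1, DESeq2 calls for 0, limma-voom calls for 0; median -0.07).

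Across the genotypes as a whole, 0 of the 9 tested identity genes passed in edgeR, where 1.32% of all genes did, and 0 in limma-voom, where 0.941% of all did. DESeq2 called 2 of them lower, Pparg and Cebpa, against 6.08% of all genes with an adjusted p. It gave no adjusted p for Adipoq and Cidec. Before adjustment 3 of 9 had a p under 0.05 in edgeR (Pparg, Cebpa and Fabp4), as had 17.4% of all genes. All 9 had a log2 fold change below 0 (median -0.53), as did 50.1% of all genes. Without WT1, 6 of the 9 remained below 0, since Plin1, Cidec and Adipoq turned.

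**Figure D4:**
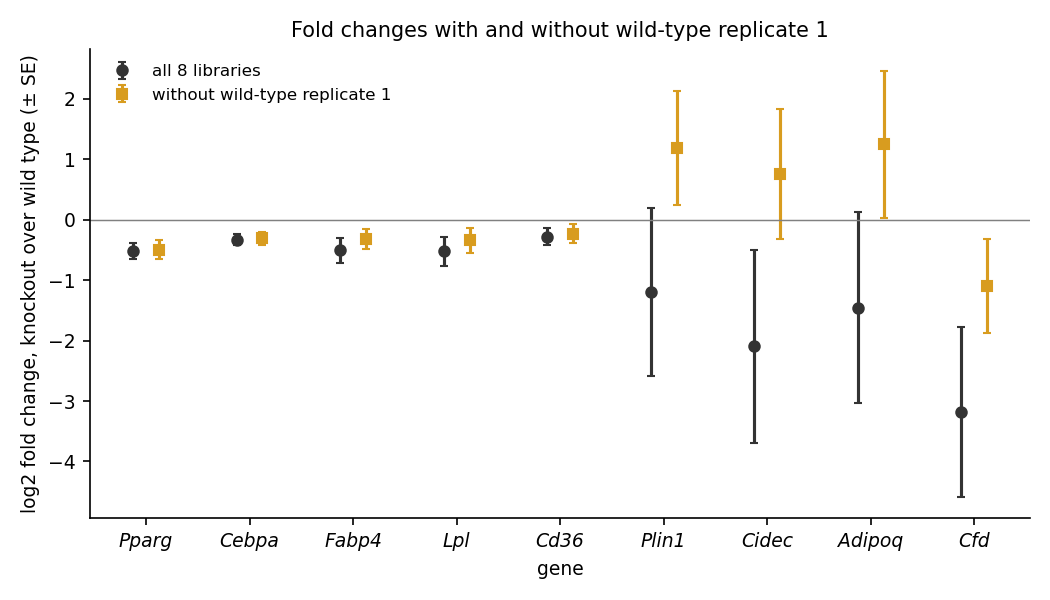
Log2 fold changes of the 9 tested identity genes, knockout over wild type, with standard errors, from all 8 libraries (circles) and without WT1 (squares). Plin1, Cidec and Adipoq lie below 0 with all libraries and above 0 without WT1, and the fold changes of Pparg and Cebpa stay close to their first values.

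Regulators that act with PPAR gamma and C/EBP alpha did not pass the threshold. Of 25 activators of fat cell formation, all tested, none passed in edgeR (unadjusted p under 0.05 for 4, DESeq2 calls for 0, limma-voom calls for 0), with a median of -0.02. Cebpb, which acts early and induces Pparg, was at 17.9 ± 3.96 CPM in wild type against 13.5 ± 3.37 CPM in the knockout (± SD, n = 4; edgeR adjusted p = 0.291), and Cebpd at 19.0 ± 1.33 and 16.0 ± 2.32 (0.249). The receptor partner Rxra and the glucocorticoid receptor gene Nr3c1, the most abundant of the list, had log2 fold changes of -0.02 and -0.03.

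Genes that restrain fat formation or mark precursors moved both ways. Of 24, all tested, 1 rose and 1 fell in edgeR (8.33%, against 1.32% of all tested genes passing). Wnt10b, a Wnt ligand that blocks adipogenesis and favours osteoblasts, was at 37.1, 33.0, 35.4 and 38.0 CPM in WT1 to WT4 and at 48.7, 44.6, 53.9 and 64.1 CPM in KO1 to KO4. It was higher in all 4 knockout libraries and rose by a log2 fold change of 0.56 (SE 0.103, adjusted p = 0.0231). The Notch target Hes1 was at 57.3 ± 7.05 CPM in wild type against 38.6 ± 4.9 CPM in the knockout (± SD, n = 4) and fell by 0.57 (adjusted p = 0.0243). The call of Wnt10b was lost without WT2, WT3, WT4 or KO3 (adjusted p up to 0.0895), and that of Hes1 without WT2, WT3, KO1, KO2 or KO3 (up to 0.0753). Dlk1, the preadipocyte factor that muscle also makes, ranged from 37.9 CPM in KO2 and 39.1 in WT3 to 177 in KO1, with a log2 fold change of -0.05. It was low in the libraries with the least muscle RNA and highest in the one with the most. The part of muscle RNA in the Dlk1 levels was not tested. The precursor receptor genes Pdgfra (0.25, adjusted p = 0.109) and Pdgfrb (-0.16, 0.366) were abundant and did not pass.

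The enzymes and binding proteins around the droplet and the lipase did not pass the threshold in edgeR. None of 18 triglyceride synthesis and droplet genes passed in edgeR (unadjusted p under 0.05 for 4, DESeq2 calls for 1, limma-voom calls for 0; median -0.08). Plin2, the droplet coat of most other cells, was at 43.6 ± 2.09 CPM in wild type against 39.6 ± 2.65 CPM in the knockout (± SD, n = 4; adjusted p = 0.326), far more even than Plin1. None of 11 lipolysis genes passed (unadjusted p under 0.05 for 2, DESeq2 calls for 1, limma-voom calls for 0; median -0.06), with the triglyceride lipase gene Pnpla2 at -0.24 and the hormone-sensitive lipase gene Lipe at -0.06. None of 21 genes of lipoprotein lipase control and fatty acid uptake passed in edgeR (median -0.11). An unadjusted edgeR p under 0.05 was found for 8, against 17.4% of all tested genes. DESeq2 called 3, against 6.08% of all genes with an adjusted p, and limma-voom called 0. Gpihbp1, which anchors the lipase on capillaries, was at 36.9 ± 3.64 CPM in wild type against 31.7 ± 3.59 CPM in the knockout (adjusted p = 0.261), and the lipase inhibitor gene Angptl4 at 82.2 ± 6.87 and 83.6 ± 17.5 (0.944).

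Among adipokine and receptor genes, 2 of 22 tested fell in edgeR and none rose (9.09%, against 1.32% of all tested genes passing). Among them was Socs3, the feedback inhibitor of leptin receptor and cytokine signalling, which fell from 35.3 ± 3.49 to 21.2 ± 2.67 CPM (± SD, n = 4; adjusted p = 0.00561). It kept the call whichever library was left out. The receptors did not pass: Lepr was at 60.5 ± 3.68 CPM in wild type against 61.1 ± 8.33 CPM in the knockout, and Adipor1 at 125 ± 3.93 and 120 ± 1.93 (adjusted p = 0.949 and 0.695). Leptin receptor transcripts were present in every library, including those in which no leptin read was counted.

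Of the 20 genes of marrow adipogenic stroma, the cells that surround marrow vessels and can make adiponectin, 1 fell and none rose in edgeR (median -0.21). That is 5%, against 1.32% of all tested genes passing. The gene that fell was the hypoxia factor gene Epas1, at 104 ± 11 CPM in wild type against 77.2 ± 7.52 CPM in the knockout (± SD, n = 4, edgeR adjusted p = 0.0423). This call was lost without WT2, WT3, WT4, KO2 or KO3 (up to 0.13). Of 14 tested complement genes, followed because adipsin starts the alternative pathway, 13 had a log2 fold change below 0 (median -0.43), against 50.1% of all tested genes. The list shares C1qa, C1qb and C1qc with the macrophage markers. In edgeR 1 of the 14 fell, against 1.32% of all tested genes passing: the C5a receptor gene C5ar1 of myeloid cells, by 0.74 on the log2 scale (adjusted p = 0.019). This call was lost without WT2, WT3, KO2 or KO3 (up to 0.0686).

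In all, 6 of 176 distinct tested genes on these 10 lists passed (3.41%), 1 higher and 5 lower, where 1.32% of all tested genes passed, 79 higher and 155 lower. The 176 had a median log2 fold change of -0.11. C5ar1 is a gene of macrophages and neutrophils, and the macrophage markers given above were lower in the same libraries. The part of macrophage RNA in the C5ar1 difference was not tested.

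The genes most alike in pattern were sought for each tested identity gene of at least 1 CPM among 12990 other named genes, the identity genes left out, by Pearson's r of log2 CPM over the 8 libraries. For Adipoq they were Lyrm2 (r = 0.90), Ptger3 (0.89) and Hoga1 (0.88), and for Plin1 Cntn1 (0.95), Lyrm2 (0.93) and Msra (0.92). Ptger3, a prostaglandin E2 receptor gene, was at 3.06 CPM in WT1 and 1.92 in KO3, with 0.905 to 1.27 CPM in the other libraries. For Cfd they were Cradd, Gng5 and Fez1 (0.92 to 0.93). Fabp4 was most like Ibsp, the bone sialoprotein gene (0.99), then Acsl1 and Ech1, and Lpl most like Prune1 (0.98), Mall and Slc35f1. Cd36 was closest to Arhgef3 (0.99), Pparg to Cables2 (0.98) and Cebpa to Scamp3 (0.99). With so many genes and so few libraries, values of this size describe these samples only.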

How the data were processed

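Counts of 8 calvaria libraries were analysed, 4 wild type and 4 Girk3 knockout, grouped and numbered by their titles. The deposited values are raw counts per Ensembl gene ID, made by the authors with bcl2fastq 2.17, STAR 2.5.2b and featureCounts of Subread 1.5.2 on mm10, per the submitters' processing notes. Neither the annotation release nor the strand setting is given in these sources.

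Genes passing filterByExpr (minimum count 10, minimum total 15; 17743 genes) were scaled with TMM; edgeR 4.0.16 (R 4.3.3) fitted them and its two-sided quasi-likelihood F test gave p-values, which were adjusted by Benjamini-Hochberg over all tested genes (threshold 0.05). Standard errors are the log2 fold change divided by the square root of the F statistic. CPM used TMM-scaled totals (library totals for Lep and Kcnj9), and log2 CPM a prior count of 2. Coordinates and lengths came from GENCODE mouse release 21 (GRCm38), and promoter windows from RefSeq.

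Alternatives were other scalings and filters, DESeq2 1.42.0, limma-voom (limma 3.58.1), marker covariates, a replicate block and leaving out libraries. The test was checked on simulated counts. The named genes were the 10 identity genes, 10 fixed lipid and hormone genes, in each list up to 4 called genes per direction and the 2 most abundant, and the 3 genes most alike to each identity gene of at least 1 CPM. Some genes that this rule names are not reported here. Members and lists were chosen with earlier results of these data known. Standard errors include the spread between libraries, SDs are that spread over 4 libraries, and floors cover counting error only.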

Additional observations from a re-analysis of the deposited data

Results flagged for a closer look

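In groups of 4 libraries, a library was marked where its gap to the nearest other library took up most of the group's range (Dixon's test, which marks about 1 in 20 groups by chance). That held in 8 of 54 groups looked at, where chance alone gives about 2.7, and the 5 fat-restricted genes are not independent of each other. WT1 stood apart for Adipoq at 10.4 CPM (0.0828 to 1.03 in WT2 to WT4), Plin1 at 8.73 CPM (0.124 to 0.782), Cfd at 6.32 CPM (0.0621 to 0.917), Cidec at 3.55 CPM (0 to 0.268) and Lep at 1.46 CPM (0 to 0.0446). Pparg stood apart in KO4, at 3.21 CPM against 4.10 to 4.27 CPM in the other knockout libraries. WT3 was below its group in the mean log2 CPM of the skeletal muscle markers, at -1.003 (5.74 to 6.19 in the others), and of the brown and beige list, at 1.56 (2.07 to 2.16).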

How the results depend on the processing

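None of the 9 tested identity genes was called in edgeR under RLE, upper quartile or library total scaling, without a count filter, with at least 1 CPM in 4 libraries, with the muscle covariate or in limma-voom. DESeq2 called 2 of them and the keratinocyte covariate 1. Leaving out single libraries gave 0 to 1 calls among them and 57 to 608 over all genes. Over all genes 234 were called, against 355 without a filter, 952 in DESeq2, 1007 with the keratinocyte covariate and 8 in the 5 libraries with more muscle RNA, a set chosen from earlier results. With the replicate block there were 126 calls and none among the identity genes. The block narrowed the SE of Lpl from 0.236 to 0.125 and that of Fabp4 from 0.207 to 0.126. That of Pparg went from 0.138 to 0.141. The deviations of same-numbered libraries correlated at 0.26, -0.18, 0.34 and -0.01, and 1 of 8 libraries correlated best with its own number. These values cannot tell whether same-numbered libraries shared a litter or a preparation, which the labels do not give. DESeq2 called 2 mature adipocyte, 4 inhibitor and precursor, 1 droplet, 1 lipolysis, 3 lipase and uptake, 2 marrow stroma and 2 complement genes, and limma-voom 0 marrow stroma genes. Without WT1 the log2 fold changes of Adipoq, Cidec and Plin1 reversed to 1.25, 0.75 and 1.19, and the difference in Lep to 0.121 CPM. Over all single left-out libraries these ran from -2.59 to 1.25 (Adipoq), -2.59 to 0.75 (Cidec), -1.89 to 1.19 (Plin1) and -0.364 to 0.121 CPM (Lep). Scaling by library totals turned the split of calls from 79 higher and 155 lower to 113 higher and 99 lower. The filter of 1 CPM left Adipoq, Cfd, Cidec and Plin1 without a value. Without single libraries fewer samples were fitted; otherwise the cause was not tested. At these depths a gene under 3 counts is not told from absence.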
